A study of Mus musculus with 6 samples.

Results

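Gene deserts held 5147 of the 64217 open chromatin regions (8.02%) compared between the stiffer cultures of mouse lung fibroblasts. A region was taken as a gene desert region if its plain and its detailed annotation were both intergenic, with no repeat and no CpG island, and if the nearest annotated start site lay more than 100 kb away. By the same rule, 97 of the 2121 regions listed as more open on 32 kPa than on 0.2 kPa (4.57%) were desert regions, and so were 146 of the 2114 listed as more open on plastic than on 0.2 kPa (6.91%). The rule used position and annotation and no level, fold or p-value.

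The cells were GFP-positive lung fibroblasts sorted from Col1a1-GFP transgenic mice, in which the GFP marks cells that use the Col1a1 promoter. They were grown on collagen I on 0.2 kPa PDMS (a soft silicone), on 32 kPa PDMS or on tissue-culture plastic, with 2 libraries per culture and 6 in all. All 3 cultures shared the genotype, the coating at 0.1 mg/mL, medium with 10% FBS and 8 days of growth, and each library used 50000 cells. The age of the mice, and whether a culture's libraries were made from different animals, are not given in the sources used here. The authors' p-values then cover only how these libraries varied, and that variation may be technical. Accessibility was measured by Omni-ATAC-seq, an assay that uses a transposase to cut and tag open DNA. A level is the authors' mean of a culture's normalised reads on the log2 scale, and a fold is the difference of 2 such levels. Library spread and depth per library are unknown, since the deposited tables give each culture as 1 mean. Regions annotated as promoters were present for 8 of 10 fibroblast marker genes, with levels of 3.76 to 6.14 on 32 kPa, and for no leukocyte marker gene of 6. Promoter regions were also present for 1 of 8 epithelial genes (Foxj1, 5.0 on 32 kPa), for 2 of 6 endothelial genes (Kdr and Tek, 3.08 to 3.13) and for 1 of 6 mesothelial, smooth muscle or pericyte genes (Myh11, 5.25). The part of other cell types in the results was not tested.

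Gene deserts are long stretches of chromosome without protein-coding genes. Many flank genes of development, such as transcription factors and secreted signals, and hold enhancers, which are short elements that act on a gene from a distance through chromatin looping. Open chromatin far from any gene marks candidate enhancers, but also insulators and unannotated transcription starts. The nearest gene names a region's place and need not be the gene it acts on.

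The desert label was checked against RefSeq (GRCm38.p6), a gene annotation of the same build as the tables' mm10 that holds more transcripts. Of the 5147 desert regions, 858 (16.7%) lay inside a RefSeq gene, against 67.3% of all regions. The gene was a long non-coding RNA gene for 665 of them, a protein-coding gene for 126 and a pseudogene for 47. Start sites could be looked up for 4911 desert regions. Of these, 2316 (47.2%) had a RefSeq start site within 100 kb and 460 (9.37%) had one within 10 kb. The median distance to a start site fell from 195 kb in the deposited annotation to 106 kb in RefSeq. A stricter set of 2383 regions (48.5% of those looked up) had no RefSeq start site within 100 kb and lay in no RefSeq gene. For the others looked up, the desert label held in the deposited annotation and not in RefSeq. Among protein-coding RefSeq genes, the one holding most desert regions was Opcml, which encodes a neuronal cell adhesion molecule, with 15. Adamtsl1 and Nrg1 held 8 each, Bach2 and Tenm3 6 each.

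**Figure D1:**
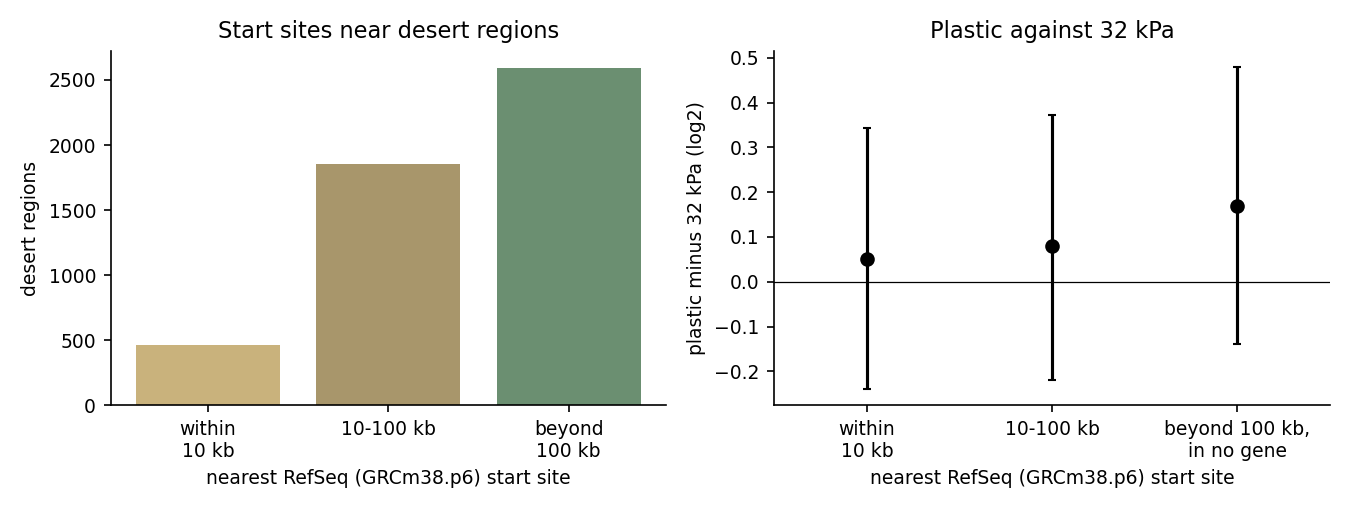
Desert regions by distance to the nearest RefSeq start site. Left, number of desert regions with a start site within 10 kb (460), at 10 to 100 kb or beyond 100 kb, of 4911 looked up. Right, the difference between plastic and 32 kPa in log2 normalised reads, as median (point) and interquartile range (bar) over regions. The medians are 0.05, 0.08 and 0.17, and the third group holds the 2383 regions that also lie in no RefSeq gene.

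RefSeq promoters were present inside 49 desert regions, which overlapped 58 windows reaching from 250 bases before to 50 bases after the start of 51 genes. Their levels had a median of 4.38 on 32 kPa and 4.66 on plastic. Both such regions that were also listed against 0.2 kPa are shown, together with 2 that were among the most open of the 49, because they show what the tables call a desert and RefSeq calls a promoter. Each sequence runs 5′ to 3′ on the gene's strand and is credited to RefSeq GRCm38.p6. Capitals mark the bases that lie inside the ATAC-seq region. The windows are chr3:144381099-144381398 on the minus strand for Gm34434, chr2:92741980-92742279 on the plus strand for Gm13816, chr17:16951286-16951585 on the plus strand for BC002059 and chr12:74825050-74825349 on the plus strand for Gm39473.
Gm34434: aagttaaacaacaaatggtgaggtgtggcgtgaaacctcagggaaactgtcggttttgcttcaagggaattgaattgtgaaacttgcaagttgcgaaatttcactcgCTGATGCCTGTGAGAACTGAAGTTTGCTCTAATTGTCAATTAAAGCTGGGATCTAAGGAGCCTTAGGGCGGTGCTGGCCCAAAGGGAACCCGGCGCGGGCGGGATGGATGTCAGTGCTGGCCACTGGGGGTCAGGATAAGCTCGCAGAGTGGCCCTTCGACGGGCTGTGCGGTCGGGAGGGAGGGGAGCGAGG
Gm13816: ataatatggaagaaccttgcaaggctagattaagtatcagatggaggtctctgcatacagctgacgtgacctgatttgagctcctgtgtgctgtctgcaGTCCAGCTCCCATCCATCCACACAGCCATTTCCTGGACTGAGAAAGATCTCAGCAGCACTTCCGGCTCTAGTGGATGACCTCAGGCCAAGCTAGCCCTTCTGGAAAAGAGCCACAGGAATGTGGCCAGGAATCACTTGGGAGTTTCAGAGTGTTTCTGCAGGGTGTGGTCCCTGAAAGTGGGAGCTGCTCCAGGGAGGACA
BC002059: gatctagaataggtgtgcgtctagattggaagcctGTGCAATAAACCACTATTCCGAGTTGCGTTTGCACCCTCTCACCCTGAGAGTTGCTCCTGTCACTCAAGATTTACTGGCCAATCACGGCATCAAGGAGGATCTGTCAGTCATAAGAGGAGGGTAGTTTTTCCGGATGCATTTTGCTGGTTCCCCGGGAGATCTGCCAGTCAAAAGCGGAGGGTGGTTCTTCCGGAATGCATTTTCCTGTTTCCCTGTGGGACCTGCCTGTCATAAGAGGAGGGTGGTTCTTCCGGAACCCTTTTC
Gm39473: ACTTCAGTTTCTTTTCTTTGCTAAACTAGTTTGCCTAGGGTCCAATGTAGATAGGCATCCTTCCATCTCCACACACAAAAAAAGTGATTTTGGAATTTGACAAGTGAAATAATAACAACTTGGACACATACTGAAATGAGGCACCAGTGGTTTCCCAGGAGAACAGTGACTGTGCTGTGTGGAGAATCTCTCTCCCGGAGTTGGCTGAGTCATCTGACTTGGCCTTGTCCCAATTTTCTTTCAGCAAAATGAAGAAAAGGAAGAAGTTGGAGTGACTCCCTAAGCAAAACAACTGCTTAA

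The region at the start of Gm34434 is 176 kb upstream of Lmo4, its nearest gene in the deposited annotation. Its level was 5.0 on 0.2 kPa, 6.04 on 32 kPa and 5.61 on plastic, and the authors' deposited table listed it for 32 kPa (fold 1.03, FDR = 0.0222). The region at the start of Gm13816 is 141 kb downstream of the start of Chst1. Its level was 4.32 on 0.2 kPa, 5.04 on 32 kPa and 5.36 on plastic, and the authors' deposited table listed it for plastic (fold 1.05, FDR = 0.049). Listing placed each region above 0.2 kPa on 1 stiffer surface, and its level on the other stiffer surface was also above 0.2 kPa. Here and for each listed region, the level on the culture that a comparison with 0.2 kPa lacks was read in the comparison of the stiffer cultures. The region at BC002059, a zinc finger gene, had a level of 6.08 on 32 kPa and 6.49 on plastic, and the one at Gm39473 had 6.17 and 6.2.

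Short words known from transcription factor motifs were counted on both strands in the 58 windows and in all 32851 RefSeq windows of that length. The AP-1 word TGANTCA was in 11 of the 58 (19%) against 7.81% of all. One is in the Gm39473 window. The GC box word GGGCGG was in 10 (17.2%) against 35.7%, and the Gm34434 window holds 2. The TEAD word GGAATG was in 10 (17.2% against 14.7%), the RUNX word TGTGGT in 9 (15.5% against 16.8%) and the ETS word CCGGAA in 6 (10.3% against 14.9%). The BC002059 window holds 5 ETS words and 1 TEAD word, with overlaps. Its TTCCGGAA stretches each count as an ETS word on both strands, so the 5 words mark fewer separate sites. The TEAD word shares bases with one of these stretches. The Gm13816 window holds 1 each of the TEAD, RUNX and ETS words. Also among the most open were LOC115490388 (6.86 on 32 kPa, 7.23 on plastic) and Gm44812 (5.9 and 6.09), which are not shown. The LOC115490388 window holds 3 GC box words and none of the others, and the Gm44812 window holds none of these words. The median GC content was 49.7% in the 58 windows and 52.7% in all. The 58 windows all meet an open region and belong to 49 regions, while the 32851 were taken whether open or not. The shares of the 2 sets are therefore not matched for openness. These counts describe letters in a few windows that were chosen by annotation and overlap, and do not show binding.

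Desert regions were weakly open. Their level had a median of 3.83 on 32 kPa (interquartile range over regions 3.30 to 4.57) and 3.96 on plastic (3.44 to 4.64). Over all 64217 regions the medians were 4.17 and 4.24, and over promoters 5.28 and 5.27. In normalised reads, the desert medians were 14.2 on 32 kPa and 15.6 on plastic, against 18.0 and 18.9 over all regions. A level of at least 5 on both surfaces was reached by 670 desert regions (13.0%) and by 23.4% of all regions. The desert regions had a median width of 165 bases against 177 over all regions. Intergenic regions of the same kind closer to genes were about as narrow, with 162 bases within 10 kb and 166 at 10 to 100 kb. In level these closer regions lay between desert regions and all regions, with medians on 32 kPa of 4.11 within 10 kb and 3.98 at 10 to 100 kb.

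The 10 most open desert regions lay above the upper quartile of promoters, which was 6.12 on 32 kPa and 6.1 on plastic. The first was 149 kb downstream of the start of Gm31333, with a level of 7.79 on 32 kPa and 7.97 on plastic. A region 105 kb upstream of 2810429I04Rik had 7.65 and 7.59. A region 326 kb upstream of Arrdc3, an arrestin domain gene, had 7.74 and 7.46. The other 7 of the 10 most open were nearest to Hs6st1, Kif18a, Cep162, Gm8579, Tmem161b, Sall1 and Map3k7, with levels of 6.86 to 7.25 on 32 kPa and 6.93 to 7.35 on plastic. The one near Sall1, a developmental zinc finger gene, was 620 kb from it. Among these 10, the authors' deposited table gave folds between the stiffer surfaces of -0.32 to 0.37, with no unadjusted p below 0.128.

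The median desert region was 195 kb from the nearest start site (interquartile range 137 to 319 kb), and 522 were more than 500 kb away. The farthest, 1793 kb downstream of the start of 4930474H20Rik, had a level of 4.36 on 32 kPa and 3.32 on plastic. The next 4 were nearest to 4930474H20Rik again, to the ephrin gene Efna5, to Olfm4 and to Slc10a2, with levels of 2.45 to 4.74 on 32 kPa and 3.34 to 5.0 on plastic. Near the limit of the rule, the 5 desert regions closest to it were nearest to Cops8, Irx3, Cdk15, Gm32865 and Aqp9, with levels of 3.53 to 4.84 on 32 kPa. The 5 regions just short of the limit, nearest to Tmem170b, Kitl, 4921513I03Rik, Sfrp1 and 1700056E22Rik, had levels of 3.35 to 5.06. The ranges overlapped. Of all desert regions, 48.8% lay upstream of their nearest gene. The 1729 nearest genes included 60 with at least 10 desert regions and 642 with 1. The nearest gene was protein-coding for 72.1% of desert regions and non-coding RNA for 25.3%, against 84.3% and 14.4% of all regions.

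Between soft and stiff PDMS, 97 desert regions were listed as more open on 32 kPa. Their level on 0.2 kPa had a median of 4.36 (3.24 to 5.95) and on 32 kPa 5.54 (5.04 to 7.08). The median fold in the authors' deposited table was 1.22 (interquartile range 1.14 to 1.33, highest 2.11), which is 2.33-fold. The other 2024 listed regions had a median fold of 1.11 in the authors' deposited table and a median level of 6.0 on 32 kPa. A fold of at least 1.5 was given to 10 of the 97 desert regions (10.3%) and to 2.42% of the other listed regions in the authors' deposited table. An FDR of at most 0.01 was given to 19 of the 97 (19.6%) and to 33.6% of the others in the authors' deposited table. The listed desert regions thus had larger folds at higher FDR, and they were weaker. At levels of at least 6 on 32 kPa, the median fold in the authors' deposited table was 1.145 for 22 desert regions and 1.07 for the other listed regions. At 5.5 to below 6 it was 1.22 for 35 desert regions and 1.11 for the others, and below 5.5 it was 1.26 for 40 and 1.23. Every listed region had a fold of at least 1 and an FDR of at most 0.05, so regions that changed less, or that were more open on 0.2 kPa, were not analysed here.

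The largest fold on 32 kPa was at chr11:15765026-15765300 (mm10), 493 kb upstream of Vstm2a, a gene of a secreted immunoglobulin-domain protein. Its level was 3.24 on 0.2 kPa, 5.35 on 32 kPa and 4.55 on plastic, with a fold of 2.11 in the authors' deposited table (FDR = 0.00225). A region 626 kb upstream of 1700054K19Rik had 3.37, 5.24 and 4.53 (fold 1.87, FDR = 0.00604, in the authors' deposited table). A region 137 kb downstream of the start of Eea1, an endosomal tethering gene, had 3.56, 5.31 and 4.96 (fold 1.75, FDR = 0.0103, in the authors' deposited table). Their place above 0.2 kPa on 32 kPa was set by the list, and choice by the largest fold favours a high 32 kPa level. On plastic all 3 lay between the other cultures. The next by fold were nearest to 1700101O22Rik, Slco6d1, Pde3a, Wac, Sec61b, Unc5d and 4930554C24Rik, and the authors' deposited table gave them folds between 1.5 and 1.65. Pde3a, a gene of a cyclic nucleotide phosphodiesterase, had a second listed desert region 158 kb upstream. Its levels were 4.71 on 0.2 kPa, 5.78 on 32 kPa and 5.98 on plastic (fold 1.08, FDR = 0.0339, in the authors' deposited table).

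The 10 lowest FDR values on 32 kPa fell on both weak and strong desert regions, with levels of 3.24 to 5.95 on 0.2 kPa and 5.24 to 7.08 on 32 kPa. The lowest was at Ism1 and the next at the Vstm2a region already described. At chr2:139792373-139792972, 114 kb downstream of the start of Ism1, which encodes a secreted protein, the level was 5.69 on 0.2 kPa, 6.95 on 32 kPa and 6.74 on plastic. The authors' deposited table gave it a fold of 1.26 (FDR = 0.00129). A region 655 kb downstream of the start of 4930554G24Rik had 4.65, 6.14 and 6.01 (fold 1.49, FDR = 0.00259, in the authors' deposited table). A region 253 kb upstream of Cadm1, a cell adhesion gene, had 4.97, 6.34 and 6.21 (fold 1.37, FDR = 0.00333, in the authors' deposited table). The rest of the 10 lowest FDR values were near H2afy3, Tnfsf18, Tm4sf1, Pde3a, Wac and 1700054K19Rik, besides Vstm2a. The 97 regions had 91 nearest genes. Those with 2 listed regions were 4930405L22Rik, Bambi, Pde3a, Plpp3, Tenm4 and Zfp608. Bambi encodes a pseudoreceptor of the TGF-beta family, and its regions lay 121 and 128 kb downstream of its start with folds of 1.09 and 1.26 in the authors' deposited table. Plpp3, a lipid phosphate phosphatase gene, had folds of 1.29 at 116 kb and 1.15 at 300 kb in the authors' deposited table.

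Between soft PDMS and plastic, 146 desert regions were listed as more open on plastic. Their level on 0.2 kPa had a median of 4.35 (3.42 to 5.96) and on plastic 5.49 (4.95 to 6.97). The median fold in the authors' deposited table was 1.17 (interquartile range 1.07 to 1.27, highest 1.72), which is 2.25-fold, against 1.11 for the other 1968 listed regions. A fold of at least 1.5 was given to 6 desert regions (4.11%) and to 2.39% of the other listed regions in the authors' deposited table. An FDR of at most 0.01 was given to 25 desert regions (17.1%) and to 33.9% of the others in the authors' deposited table. Below a level of 5.5 on plastic, the median fold in the authors' deposited table was 1.26 for 74 desert regions and 1.20 for the others. At 5.5 to below 6 it was 1.115 and 1.095, and at a level of at least 6 it was 1.085 and 1.07.

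The largest fold on plastic was 146 kb upstream of Lyzl1, a lysozyme-like gene, where the level was 3.42 on 0.2 kPa, 4.64 on 32 kPa and 5.13 on plastic. The authors' deposited table gave it a fold of 1.72 (FDR = 0.0104). A region 655 kb upstream of Zfp608, a zinc finger gene, had 4.35, 5.62 and 5.91 (fold 1.56, FDR = 0.00133, in the authors' deposited table). It had the lowest FDR among the 146. At chr15:56024239-56024524 (mm10), 117 kb upstream of Sntb1, a gene of a dystrophin-associated adaptor, the level was 4.03, 4.47 and 5.57. Its fold on plastic over 0.2 kPa was 1.54 in the authors' deposited table (FDR = 0.00452), while on 32 kPa it lay 0.44 above 0.2 kPa. The other large folds were near Unc5d, Kdr, Angpt1, Adgrl2, Cenpw, Gm7538 and Impad1, at 1.46 to 1.5 in the authors' deposited table. Kdr encodes a receptor of vascular endothelial growth factor and is an endothelial marker. Its listed region, 193 kb downstream of its start, had 3.78 on 0.2 kPa, 4.92 on 32 kPa and 5.28 on plastic (fold 1.5, FDR = 0.0118, in the authors' deposited table). Angpt1, the ligand of an endothelial receptor, had a region at 380 kb with 3.71, 5.03 and 5.20 (fold 1.5, FDR = 0.0205, in the authors' deposited table).

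The lowest FDR values on plastic were near Zfp608, Bod1, Tm4sf1, Gm525, Gm5347, Mir6379, 2610035D17Rik, Sntb1, Ism1 and Unc5d. The region at Bod1, 107 kb downstream of its start, had 5.07 on 0.2 kPa, 6.18 on 32 kPa and 6.34 on plastic (fold 1.27, FDR = 0.00208, in the authors' deposited table). The region at Tm4sf1, a cell surface protein gene, had 5.96, 7.08 and 6.97 (fold 1.01, FDR = 0.0022, in the authors' deposited table). The 146 regions had 134 nearest genes, and 12 genes had 2 listed regions each. They were Arrdc3, Cadm1, Cenpw, Cited2, D3Ertd751e, Gm12718, Gm20125, Mir7021, Moxd1, Ncam1, Slc10a2 and Tenm4. At Slc10a2, a bile acid transporter gene, both regions were close to the soft level on 32 kPa. The one 179 kb upstream had 4.37 on 0.2 kPa, 4.54 on 32 kPa and 5.43 on plastic, and the one 939 kb upstream had 4.4, 4.71 and 5.41 (folds 1.06 and 1.01 on plastic in the authors' deposited table). At Ncam1, a neural cell adhesion gene, the regions 125 and 177 kb upstream had 5.73 and 5.75 on 32 kPa and 6.04 and 5.74 on plastic (folds 1.19 and 1.13 in the authors' deposited table).

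**Figure D2:**
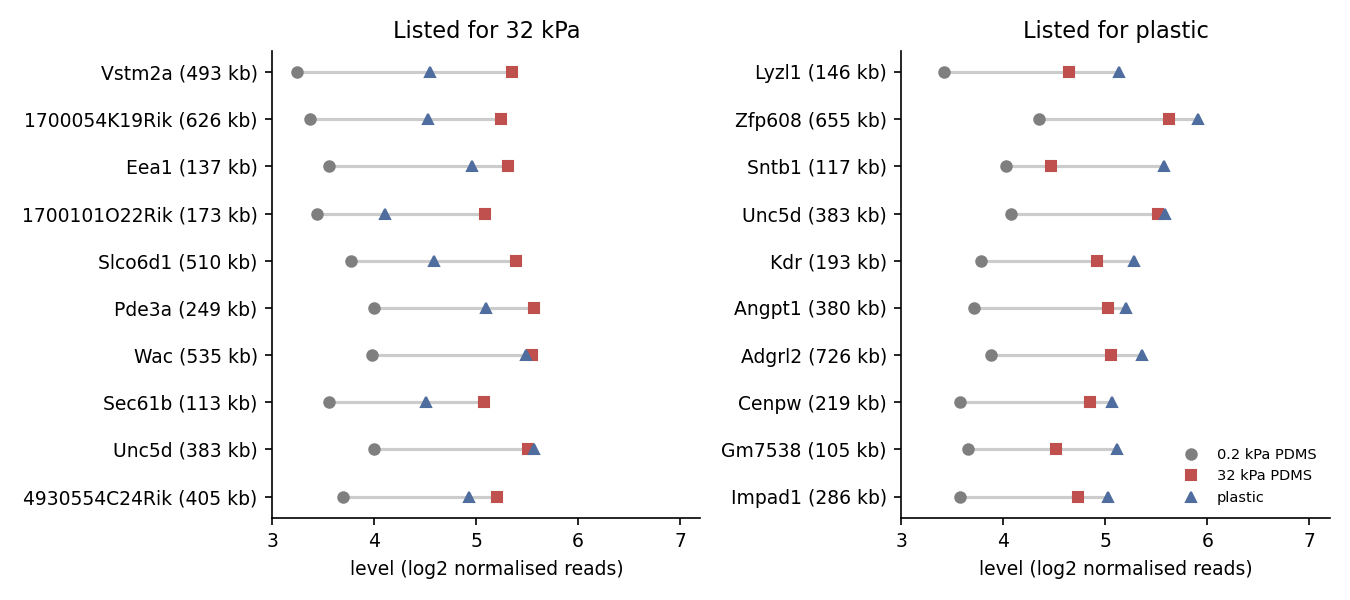
Levels in log2 normalised reads on 0.2 kPa PDMS (grey circles), 32 kPa PDMS (red squares) and plastic (blue triangles) at the 10 listed desert regions with the largest fold in each comparison with 0.2 kPa. Rows are named by the nearest gene, with the distance to its start in kb. Each point is the authors' mean of 2 libraries. At Vstm2a the level was 3.24 on 0.2 kPa, 5.35 on 32 kPa and 4.55 on plastic, and at Sntb1 the 32 kPa level of 4.47 was close to the soft level of 4.03.

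The 2 lists share the 0.2 kPa libraries, so their folds are not independent and are only given side by side for regions in both. Over the 32 such regions, folds in the authors' deposited tables ran from 1.0 to 1.57 on 32 kPa and from 1.01 to 1.56 on plastic. The share of all listed regions found in both lists was not computed, so the count of 32 has no background here. The 6 that follow are examples chosen after their values were seen. Near Unc5d, a netrin receptor gene, the authors' deposited tables gave a fold of 1.5 on 32 kPa and 1.5 on plastic. Near 4930554G24Rik the folds were 1.49 and 1.35 in the authors' deposited tables, and near Cadm1 1.37 and 1.23. The most distant region in both lists, 1350 kb upstream of the teneurin gene Tenm4, had 1.12 and 1.34 in the authors' deposited tables. At a second Tenm4 region, 256 kb upstream, they were 1.20 and 1.24. Near Adgrl2, an adhesion receptor gene, at 726 kb they were 1.18 and 1.49. All 97 desert regions listed for 32 kPa were also above 0.2 kPa on plastic, by a median of 1.0. Of the 146 listed for plastic, 145 were above 0.2 kPa on 32 kPa, with a median difference of 0.93. Each such difference uses the same 0.2 kPa level that placed the region in its list.

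Few desert regions overlapped a listed region, and few were open enough to be listed. Counting overlaps of at least 1 bp, 98 of the 5147 desert regions (1.9%) met a region listed for 32 kPa, against 3.31% of all regions. For plastic, 139 (2.7%) met a listed region, against 3.3%. The lowest level of a listed region was 4.97 on 32 kPa and 4.94 on plastic, and 801 and 894 desert regions reached it. Of these, 98 (12.2%) met a region listed for 32 kPa, against 12.5% of all regions that reached it, and 139 (15.5%) met one listed for plastic, against 11.7%. Here and below, these shares were taken over regions chosen by their level on the stiffer culture. That culture is also the higher side of every listed fold, so the shares are not independent of that choice. On 32 kPa the pooled share was near the background, but the level classes differed. The desert share was 9.09% against 6.51% of all at levels from 4.97 to below 5.5, 17.0% against 14.5% at 5.5 to below 6, and 13.9% against 17.8% from 6 up. On plastic the pooled share was above the background. At levels from 4.94 to below 5.5 on plastic, 14.9% of 471 desert regions met a listed region against 8.84% of all, while at 5.5 to below 6 it was 16.3% against 15.2%, and from 6 up 16.4% against 12.7%.

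Distance split the desert regions further. Beyond 500 kb, 19 of the 73 regions that reached the lowest listed level (26.0%) met one listed for 32 kPa, against 79 of 728 nearer desert regions (10.9%). For plastic it was 24 of 87 (27.6%) against 115 of 807 (14.3%). The share did not climb steadily, since at 300 to 500 kb it was 6.9% for 32 kPa and 17.7% for plastic. The 19 regions had 19 nearest genes on 11 chromosomes, and the 24 had 22 on 13. Without the chromosome that held most of them, the shares were 23.5% and 25.6%. The 73 regions had a median level of 5.39 on 32 kPa, and all 801 had 5.46. At levels below 5.5 on 32 kPa the shares were 20.9% beyond 500 kb and 7.73% nearer, and from 5.5 up they were 33.3% and 14.2%. For plastic they were 24.4% and 13.8% below 5.5, and 31.0% and 14.7% above. Regions entered these shares by their level on the stiffer culture, the higher side of the listed folds. The split at 500 kb was made after the values were seen, the comparisons share the 0.2 kPa libraries, and regions are not replicates, so no test is given.

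**Figure D3:**
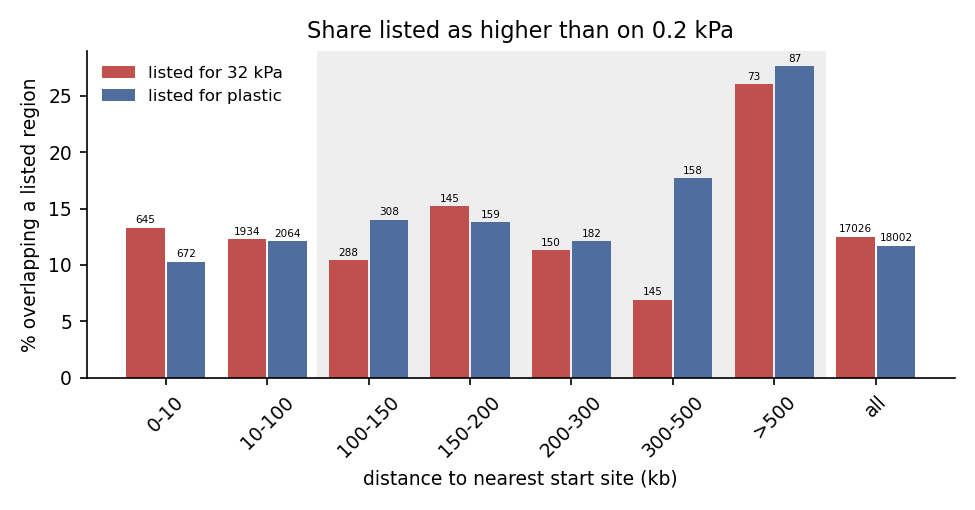
Share of plain intergenic regions that overlap a region listed as more open on 32 kPa (red) or plastic (blue) than on 0.2 kPa, in percent, by distance to the nearest start site in kb. Regions below the lowest listed level on the stiffer culture are left out, and the number above each bar is how many regions remained. The shaded classes are desert regions, and the last pair is all regions of any annotation. Beyond 500 kb the shares were 26.0% of 73 and 27.6% of 87 regions, against 12.5% and 11.7% of all regions.

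Between 32 kPa and plastic, no desert region passed an FDR of 0.05 in the authors' deposited DiffBind table, and neither did any of the 64217 regions (0%). At an unadjusted p under 0.05, the authors' deposited table held 27 desert regions higher on plastic and 10 higher on 32 kPa, which were 0.525% and 0.194% of desert regions. Over all regions the shares were 0.382% and 0.195%, so the desert share higher on 32 kPa was at the background. In both directions together, 0.719% of desert regions and 0.576% of all regions had such a p. Both shares lie far below what this limit would pass if no region differed, so neither count is an excess. The named regions that follow were chosen by their p after the values were seen. The lowest p was at the Sntb1 region, with 4.47 on 32 kPa and 5.56 on plastic (fold 1.09, p = 0.0106, in the authors' deposited table). A region 137 kb upstream of Fam92a had 4.09 and 5.31, and one 225 kb upstream of Spaca1 had 4.49 and 5.59. The other 2 of the 5 lowest p were at weaker regions, near the growth factor gene Pdgfc (2.55 and 4.4) and the cell adhesion gene Alcam (1.43 and 3.78). In the other direction, a region 237 kb upstream of Gk2 had 3.74 on 32 kPa and 1.58 on plastic (fold -2.16, p = 0.0215, in the authors' deposited table), and one 204 kb upstream of Eya1, a developmental cofactor gene, had 4.04 and 2.28 (p = 0.0233 in the authors' deposited table). The rest of the 5 were near Cacng3 (3.3 and 0.32), Nsmaf (3.88 and 2.0) and A1bg (4.91 and 3.75).

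Although no single region passed, the folds of desert regions leaned to plastic. Their median fold was 0.12 in the authors' deposited table (interquartile range -0.18 to 0.43), and 60.5% were above 0. Over all regions the median was 0.05, with 55.0% above 0. A fold of at least 1 in either direction was given to 362 desert regions (7.03%) and to 4.68% of all regions in the authors' deposited table. Such folds were mostly at weak regions. Among regions with a mean level of at least 4, the share was 0.419% to 0.909% over the distance classes of desert regions. It was 0.422% of all regions and 0.625% of plain intergenic regions at 10 to 100 kb. The median desert fold was above the median of all regions on 17 of 20 chromosomes. The spread over regions was wider than this shift, and the difference between libraries of a culture is unknown.

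The lean grew with distance from genes. The median fold in the authors' deposited table was 0.07 within 10 kb and 0.06 at 10 to 100 kb among plain intergenic regions. In desert regions it was 0.07 at 100 to 150 kb, 0.10 at 150 to 200 kb, 0.13 at 200 to 300 kb and 0.16 at 300 to 500 kb. Beyond 500 kb it was 0.22, with 70.1% of 522 regions above 0. The lean was smaller among more open regions. Among regions with a mean level of at least 4, the medians in the authors' deposited table were 0.05 at 100 to 150 kb and 0.15 beyond 500 kb, against 0.02 over all regions. With a level of at least 5 they were 0.04 and 0.12, against -0.02. Beyond 500 kb the median was above 0 on 19 of 20 chromosomes, chromosome 1 being below at -0.09. The median of all regions was itself above 0 on every one of these 20. The median beyond 500 kb was above that chromosome's median of all regions on 19 of the 20. Among the 11 chromosomes with at least 20 such regions, this held on 10. RefSeq distances gave the same order, with 0.05 for regions with a start within 10 kb, 0.08 at 10 to 100 kb and 0.17 in the stricter set, of which 64.0% were above 0.

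**Figure D4:**
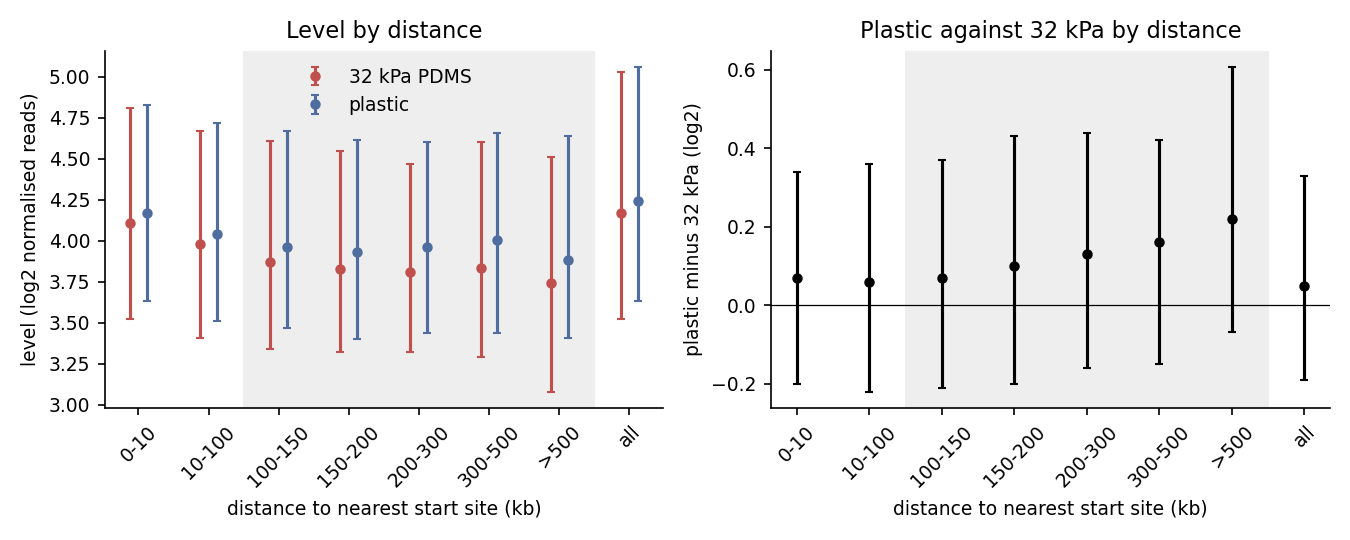
Plain intergenic regions by distance to the nearest start site in kb, with desert regions shaded and all regions of any annotation at the right. Left, level in log2 normalised reads on 32 kPa PDMS (red) and plastic (blue); right, plastic minus 32 kPa. Points are medians and bars interquartile ranges over regions, not errors between libraries. The median difference was 0.07 at 100 to 150 kb and 0.22 beyond 500 kb, and the bars overlap in every class.

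Desert regions were grouped into runs by the gap to the next desert region. No such share was computed for other regions, so whether desert regions cluster more than others was not tested. With gaps of at most 5 kb, 26.1% of desert regions stood in runs of at least 2, and with gaps of at most 50 kb, 68.8%. With gaps of at most 20 kb, 2567 (49.9%) stood in 1007 runs of at least 2, and 49 runs held at least 5. The longest, 10 regions over 63.3 kb at chr16:29711985-29775291 (mm10), lay 133 to 196 kb from Opa1, a mitochondrial fusion gene. Its levels were 2.76 to 4.75 on 32 kPa and 3.21 to 4.99 on plastic. A run of 9 lay 195 to 232 kb from Marcks, a gene of an actin-regulating membrane protein, with 2.92 to 4.32 on 32 kPa and 2.49 to 4.11 on plastic. Runs of 8 lay near 4921513I03Rik and Hmga2, an architectural chromatin gene, and near Gm5084 and Dapk1, a death-associated kinase gene, and a run of 7 near Ddx1. No region of these 5 runs met a listed region, where 1.9% of all desert regions met one for 32 kPa and 2.7% one for plastic. The level median on 32 kPa was 3.88 in runs and 3.795 for regions alone, and the median fold of plastic over 32 kPa in the authors' deposited table was 0.10 and 0.15. Among regions reaching the lowest listed level, 12.6% of those in runs and 19.2% of those alone met a region listed for plastic. For 32 kPa the shares were 12.5% and 11.9%. All desert regions reaching the level had 15.5% for plastic and 12.2% for 32 kPa, and all regions had 11.7% and 12.5%. Regions in runs and alone were not matched for distance to a start site.

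Single genes drew many desert regions. Tbl1xr1, a corepressor subunit gene, was nearest to 25, all upstream at 113 to 808 kb, with levels of 3.08 to 5.96 on 32 kPa and 2.46 to 5.92 on plastic. Efnb2, an ephrin gene, was nearest to 24, all downstream at 173 to 1650 kb, and 18 of them had the higher mean on plastic. Marcks had 20, of which 8 had the higher mean on plastic. None of the regions nearest to these 3 genes met a listed region. Lrig3 had 18, with 1 listed for each stiffer surface, and Zfp608 had 17, with 2 listed for 32 kPa and 1 for plastic. Map3k7, a TGF-beta-activated kinase gene, had 16, with 1 listed for 32 kPa. Adgrl2, Fgf9, Gm12724 and Nmur2 were among 6 genes tied at 15. No region of these 10 genes had an unadjusted p below 0.0804 between 32 kPa and plastic in the authors' deposited table.

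Genes of developmental transcription factors were common neighbours. Of 1083 regions nearest to a gene of a list of 138 such factors, 248 (22.9%) were desert regions, against 8.02% of all regions, and they belonged to 59 genes. Klf4 and Tshz3 had 12 each, Maf 11 and Tbx18 10. Their median level was 3.875 on 32 kPa and 3.97 on plastic, close to the desert medians, and the median fold was 0.17 in the authors' deposited table. Listed were 2 for 32 kPa and 2 for plastic, where 36 and 41 reached the lowest listed level. Among all regions reaching it, 12.5% and 11.7% met a listed region. The region 314 kb downstream of the start of the homeobox gene Irx1 had 3.96 on 0.2 kPa and 5.20 on 32 kPa (fold 1.25, FDR = 0.0416, in the authors' deposited table). The region near Tbx18, a T-box gene, had 4.94 and 5.98 (fold 1.05, FDR = 0.0265, in the authors' deposited table). On plastic, the region 270 kb upstream of Sox11 went from 3.90 to 5.17 and the one near Irx5 from 4.11 to 5.38, each with a fold of 1.27 in the authors' deposited table.

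Signalling genes also had many desert regions. In a list of 88 TGF-beta, YAP/TAZ and growth factor genes, 143 of 774 regions (18.5%) were desert regions, at 41 genes led by Fgf9 with 15 and Bmper, a BMP-binding protein gene, with 13. Listed were 3 for 32 kPa and 3 for plastic, where 22 and 21 reached the lowest listed level. Among all regions reaching it, 12.5% and 11.7% met a listed region, so the listed counts were near the background. Those listed for 32 kPa were at Bmp2, a ligand of the TGF-beta superfamily (4.31 on 0.2 kPa, 5.59 on 32 kPa), at the growth factor Igf1 (4.45 and 5.54) and at the receptor Fgfr2 (4.60 and 5.65). Their folds were 1.29, 1.09 and 1.05 in the authors' deposited table. Regions listed for plastic included those at the ligands Kitl (4.01 on 0.2 kPa, 5.18 on plastic) and Fgf9 (5.01 and 6.03), with folds of 1.17 and 1.01 in the authors' deposited table. Between the stiffer surfaces, 84 of the 143 (58.7%) had the higher mean on plastic, against 60.5% of all desert regions. Of the 30 genes with at least 2 desert regions, 19 were mixed, 7 had the higher mean on plastic in every region and 4 on 32 kPa in every region. As examples chosen for that pattern, all 4 desert regions near Fgf18 and both near Fgf10 had the higher mean on 32 kPa, and all 3 near Wnt5a and all 3 near Vgll3, a TEAD cofactor, had the higher mean on plastic. None of these regions passed the FDR.

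For structural genes the share of desert regions was near the 8.02% of all regions. In the list of 42 actin, contractile and adhesion genes, 25 of 320 regions (7.81%) were desert regions, and 13 of these belonged to Cdh11, the cadherin of mesenchymal cells. Different Cdh11 regions were listed in the 2 comparisons. The one 289 kb downstream of its start had 3.96 on 0.2 kPa, 5.26 on 32 kPa and 5.01 on plastic (fold 1.3, FDR = 0.0354, in the authors' deposited table). The one 1280 kb downstream had 4.26 on 0.2 kPa, 4.96 on 32 kPa and 5.35 on plastic (fold 1.08, FDR = 0.0463, in the authors' deposited table). Each was thus also above 0.2 kPa on the stiffer surface it was not listed for. In the list of 46 collagen and matrix genes, 32 of 374 regions (8.56%) were desert regions and none was listed, although only 2 and 3 reached the lowest listed level. The most open was 119 kb from Postn, the periostin gene, at 6.16 on 32 kPa and 6.05 on plastic. The one near Col1a2 had 5.07 and 5.02. Regions of 1 list are not independent of each other.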

How the data were processed

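Omni-ATAC-seq of 6 libraries, 2 per culture, was analysed from 3 deposited tables, each comparing a pair of cultures. Samples were grouped by the culture in their labels. BWA, Picard, MACS2 and DiffBind are named, without versions, per the submitters' processing notes, as is mm10. A shift of reads for the transposase, the merging of peaks and the scaling of libraries are not given in the sources used here. Per the file headers, the deposited levels and folds are log2 values: the authors' mean of normalised reads per culture, and the difference of 2 such means. Each p-value and FDR was computed and deposited by the authors. No table held values per library and depth is unknown, so no test or fit was computed, and precision rests on the authors' FDR. Intervals over regions (95%) served only to sort the alternatives, and regions are not replicates.

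Both tables with 0.2 kPa call their sides Control and Treat. At 643 intervals shared with the table of 32 kPa against plastic, Control equalled the 32 kPa level, and at 653 it exceeded the plastic level by 0.01 to 0.02. The stiffer culture was therefore taken as Control. Levels set across tables carry that difference. Starts in both tables were raised by 1 base to count from 1. A repeated header row (1 in all) was removed from the third table.

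Overlaps used bedtools 2.31.1 at a minimum of 1 bp. Matching a listed region to its level on the remaining culture needed 50% of both lengths. Analyses ran in Python 3.11.15 with scipy 1.17.1, numpy 2.4.6, pandas 2.3.3 and matplotlib 3.10.9, and the scripts were tested on simulated data. Distances in the tables and in RefSeq GRCm38.p6 agreed within 10 bases for 95.5% of 47902 regions with a gene in both. RefSeq start sites were not looked up for 236 desert regions. Without a genome here, GC content and words were counted in RefSeq promoter windows only, and no desert sequence outside them was read.

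The regions, the 4 gene lists and the 5 marker lists were chosen with earlier results of these data known. Named regions were the 10 largest folds and 10 lowest FDR values of each table against 0.2 kPa. From the table of 32 kPa against plastic came the 10 highest levels, the 5 farthest regions and the 5 on each side of the distance limit. The 10 genes with most desert regions, the 5 longest runs and listed regions near genes of the lists completed them; 1 named region is not reported here. Regions in both tables against 0.2 kPa are given by their range and 6 examples. The 5 lowest p in each direction between 32 kPa and plastic were added after the values were seen. Distance and level classes were set after the data were seen. Alternatives covered the distance limit, the annotation rule, FDR, overlap, level filters and run gaps.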

Additional observations from a re-analysis of the deposited data

How the results depend on the processing

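Of 67 alternatives to 15 values, 44 stayed within 1.5 times a count, or within the 95% interval of a share or median over regions, and 23 moved. None reversed. The 5 alternatives for the count passing the FDR between 32 kPa and plastic had to give 0, since no region of that table passed, and say nothing about stability. With members beyond 50 kb, the count was 8541, with 165 listed for 32 kPa and 4623 in runs, the median fold of plastic over 32 kPa was 0.10 and the median level on 32 kPa was 3.87. Beyond 200 kb the count was 2497, with 46 listed for 32 kPa, 78 for plastic and 1137 in runs, and the median fold was 0.17. At an FDR of at most 0.01, 19 and 25 were listed for 32 kPa and plastic, the overlapping shares were 0.389% and 0.486%, and the median fold for 32 kPa was 1.36. Among regions reaching the lowest listed level the shares were 12.2% and 15.5%. With a mean level of at least 3 the median levels were 3.94 on 32 kPa and 4.05 on plastic. A gap of 5 kb left 1341 in runs. In the stricter RefSeq set the median fold was 0.17. Beyond 500 kb, the median fold was 0.15 at a level of at least 4 and 0.12 at a level of at least 5. These 2 alternatives and the RefSeq, chromosome and overlap alternatives for the regions beyond 500 kb were chosen after seeing the data.

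No paired analysis was possible because the tables hold means per culture and no value per library; for the same reason no replicate was left out. The planned values for AP-1 words, TEAD words and GC content of desert regions were not run, since no genome was used here. The unknown depth and the weak signal of desert regions set limits: 801 and 894 of 5147 reached the lowest listed level.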
